A study of Brugia malayi with 68 samples.

Results

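The comparison set 6 libraries of untreated adult male Brugia malayi against 5 libraries of untreated microfilariae, the larvae that adult females release, out of 68 libraries in the series. Members were taken by title, as the control libraries of these stages at both collection days, and no measured value is part of that rule. Brugia malayi is a filarial nematode that causes lymphatic filariasis. Per the labels' protocols, the worms came from Mongolian gerbils infected into the peritoneal cavity with third-stage larvae and kept until larvae were released. The series design text describes biological replicates that each covered all treatments, with worms taken from the peritoneal cavity and separated by sex and stage. It does not say how many worms or animals went into a library. The labels give the control groups the solvent name DMSO, while the treatment protocol calls those animals untreated, and they are called untreated here. Males numbered 3 libraries at day 1 and 3 at day 7, and microfilariae 3 at day 1 and 2 at day 7, where the day counts from the dosing of the drug-treated animals. The other libraries used beside them are 6 of untreated females, and 18 male and 15 microfilaria libraries from gerbils given a drug: albendazole (1 mg/kg), diethylcarbamazine (6 mg/kg) or ivermectin (0.2 mg/kg).

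A microfilaria is a small sheathed larva that neither grows nor moults in the mammal and waits for uptake by a mosquito. An adult male carries muscle, gut, nervous system, cuticle and a large testis that makes amoeboid sperm, the motile cells of nematodes that move with major sperm protein in place of actin. Adult females hold oocytes, embryos and stretched larvae in the uterus, so a female library mixes adult and larval RNA. Males hold no embryos, which makes male against microfilaria a contrast of an adult and a larva without uterine larvae. A library is RNA of whole worms, so fewer cells of a type and less RNA per cell cannot be told apart.

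The files list 11590 gene identifiers and give no gene names, and 0 of them occur in the RefSeq table of 11688 genes of assembly B_malayi-4.0. No sperm, cuticle, muscle or sheath gene could thus be found by name, and the stage labels could not be checked against defining markers. Groups of genes are described by size of difference, by level and by where else they were read, and at most 2 identifiers per direction are given for a comparison. No sequences are printed, because no file pairs an identifier with one. Total counts ran from 7311412 to 24449425 over the 11 libraries. CPM is a gene's count scaled to a library total of 1000000, with no correction for gene length. Where genes are ranked by CPM, the order is one of reads and not of transcripts. The first principal component of log2 CPM held 94.7% of the variance and split the libraries by labelled stage, with males from -126.1 to -108.4 and microfilariae from 129.1 to 151.3. Male day 1 replicate 3, the library with the fewest counts, lay apart from the other males on the second component, at -50.1 against -4 to 18.5, on an axis with 1.7% of the variance. The 4-fold counts and the spread between libraries are given with and without it. Some other results are given as a range with each library left out.

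Untreated males and microfilariae differed in most genes, about equally often in each direction, but large differences were mostly of genes higher in males. Of 10480 genes tested, 8543 (81.5%) were called by edgeR (quasi-likelihood test, day as a term in the fit), which here means a Benjamini-Hochberg adjusted p under 0.05. Of these, 4358 (41.6%) were higher in males and 4185 (39.9%) higher in microfilariae. Over all genes tested the median log2 fold change, males minus microfilariae, was 0.015 with quartiles of -0.77 and 1.20, and the median size was 1.89-fold. All libraries of one stage lay above all libraries of the other in 7128 of the called genes, 68.0% of those tested.

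The balance shifted with the size of the difference. At 4-fold or more, 2811 genes (26.8%) were called, 1962 (18.7%) higher in males and 849 (8.10%) in microfilariae. At 16-fold or more (12.9% of genes) the numbers were 1134 (10.8%) and 222 (2.12%). At 64-fold or more (6.89%) they were 665 (6.35%) and 57 (0.544%). Males therefore held 51.0% of the called genes at any size, 69.8% at 4-fold and 92.1% at 64-fold. Among the 4-fold genes 31 of males had 0 counts in every microfilaria library and 8 of microfilariae had 0 counts in every male library. The fitted size of these is set by the prior count. Without male day 1 replicate 3 the 4-fold counts were 1986 and 839.

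**Figure D1:**
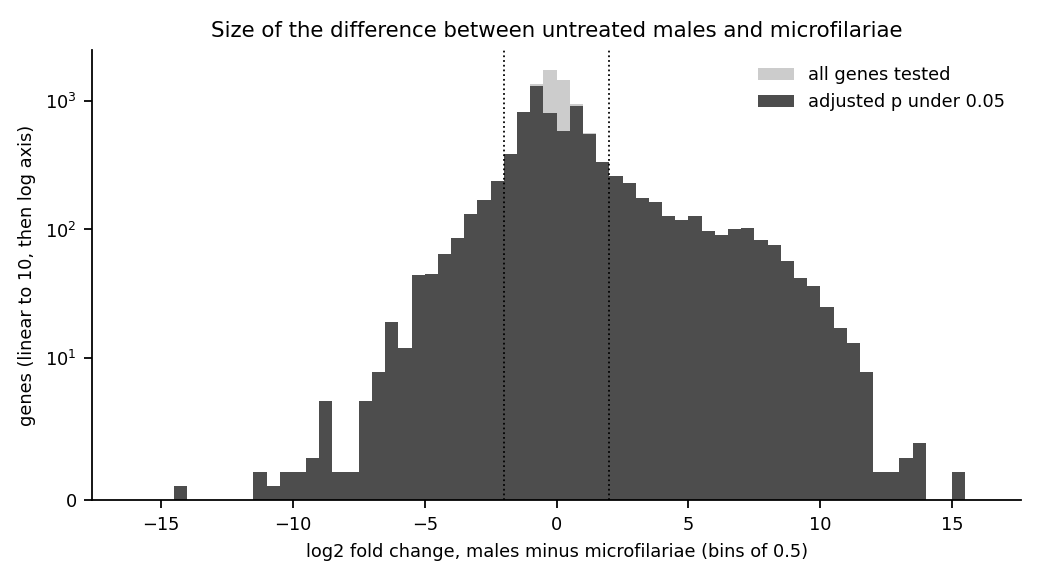
Histogram of the log2 fold change of 10480 genes, males minus microfilariae, in bins of 0.5, with all genes in light grey and genes at an edgeR adjusted p under 0.05 in dark grey. The dotted lines mark 4-fold; 1962 called genes lie to the right of the right line and 849 to the left of the left one, and the right tail is the heavier one (the gene axis is linear to 10 and logarithmic above).

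Large differences were mostly of genes with a low mean level over both stages. Genes were split into equal parts by mean log2 CPM over the 11 libraries. In the lowest part (below 3.85) 1297 genes were at least 4-fold higher in males and 647 in microfilariae, and the median size of the log2 fold change was 2.36. In the highest part (above 6.13) the 4-fold counts were 120 and 61, and the median size was 0.57. The share called was 86.1% in the lowest part, 79.0% in the middle one and 79.5% in the highest. Both the share called and the median size were thus greatest in the lowest part. The mean includes the stage where a gene is low, so a large difference itself lowers a gene's rank. This link is therefore partly built in, and it does not mean few reads in the higher stage.

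The 4-fold genes ranged from nearly unread to well read in the stage where they were lower. Of the 1962 male genes, 261 averaged under 0.1 CPM in microfilariae, 731 averaged 0.1 to 1 CPM, 710 averaged 1 to 10 CPM and 260 averaged 10 CPM or more. Of the 849 microfilaria genes, 83 averaged under 0.1 CPM in males, 317 averaged 0.1 to 1 CPM, 308 averaged 1 to 10 CPM and 141 averaged 10 CPM or more. The shares under 1 CPM were 50.6% and 47.1%. The median of the male class was 44.5 CPM in males and 0.97 CPM in microfilariae, and that of the microfilaria class 15.4 CPM in microfilariae and 1.21 CPM in males, as the choice of these genes requires a gap.

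These classes took very unequal shares of each library. The 1962 male genes took 18.8% to 23.2% of counts in the 6 male libraries (median 22.5%) and 1.08% to 1.30% in the 5 microfilaria libraries. The 849 microfilaria genes took 8.13% to 9.85% of counts in microfilariae (median 9.71%) and 1.05% to 1.40% in males. Since the same libraries chose the genes, these shares describe them and carry no test. In drug-treated worms, whose libraries chose nothing, the male class took 19.96% to 24.4% of counts in 18 male libraries and 1.18% to 1.63% in 15 microfilaria libraries. The microfilaria class took 8.09% to 10.4% of counts in those microfilariae and 0.94% to 1.76% in those males. The groups did not overlap in either class, with or without a drug.

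A smaller part of the genes had a difference bounded near 0. The 95% interval of the log2 fold change lay within 1.5-fold either way for 2153 genes, 20.5% of those tested. Of these, 749 were called all the same, with small differences, and 1404 were not called. A further 533 genes were neither called nor bounded, so their difference was not resolved with these libraries. The bounded genes took 23.7% to 24.9% of counts in males and 24.3% to 25.5% in microfilariae.

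The genes with the largest gap in CPM were named by rule, the first pair of each direction among those called and with no overlap between stages. WBGene00220914 read 5043, 2747 and 6438 CPM in males at day 1 and 6050, 4486 and 4310 CPM at day 7. In microfilariae it read 4.34, 4.30 and 3.27 CPM at day 1 and 2.63 and 4.14 CPM at day 7. Every male library lay far above every microfilaria library. Males averaged 4846 ± 1330 CPM (SD, n = 6) and microfilariae 3.73 ± 0.76 CPM (SD, n = 5). The log2 fold change was 10.34 (SE 0.33; adjusted p = 1.63e-12 by edgeR).

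WBGene00222275 read 4566, 4820 and 5002 CPM in males at day 1 and 3041, 4994 and 5307 CPM at day 7. In microfilariae it read 352, 242 and 370 CPM at day 1 and 429 and 387 CPM at day 7. This gene was present in both stages and higher in every male library, with day 7 replicate 1 the lowest male. Its log2 fold change was 3.69 (SE 0.21; adjusted p = 5.62e-10 by edgeR). Untreated females read between, from 809 to 3101 CPM with a median of 2161, whereas for WBGene00220914 females were at 2.32 to 3.68 CPM in 5 libraries and at 75.9 CPM in day 7 replicate 2.

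WBGene00268657 was the gene with the largest gap towards microfilariae, reading 17257, 14423 and 21606 CPM at day 1 and 15929 and 16224 CPM at day 7. In males it read 6386, 7004 and 5964 CPM at day 1 and 5956, 4962 and 5545 CPM at day 7. It was abundant in both stages and took 1.71% of microfilaria counts and 0.597% of male counts, with a log2 fold change at -1.50 (SE 0.17; adjusted p = 1.61e-06 by edgeR).

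WBGene00225831 read 11870, 9707 and 14201 CPM in microfilariae at day 1 and 12010 and 12322 CPM at day 7. In males it read 1703, 2136 and 2249 CPM at day 1 and 1615, 1741 and 1649 CPM at day 7. The stages did not overlap, and microfilaria day 1 replicate 2 was the lowest larval library for this gene and for WBGene00268657. Its log2 fold change was -2.69 (SE 0.17; adjusted p = 2.4e-09 by edgeR). Untreated females, at 1193 to 1755 CPM, lay near males for this gene and not near the larvae. In drug-treated worms males and microfilariae again did not overlap for 3 of these 4 genes. They overlapped for WBGene00268657, where males ran from 2085 to 9181 CPM and microfilariae from 8142 to 21900 CPM.

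**Figure D2:**
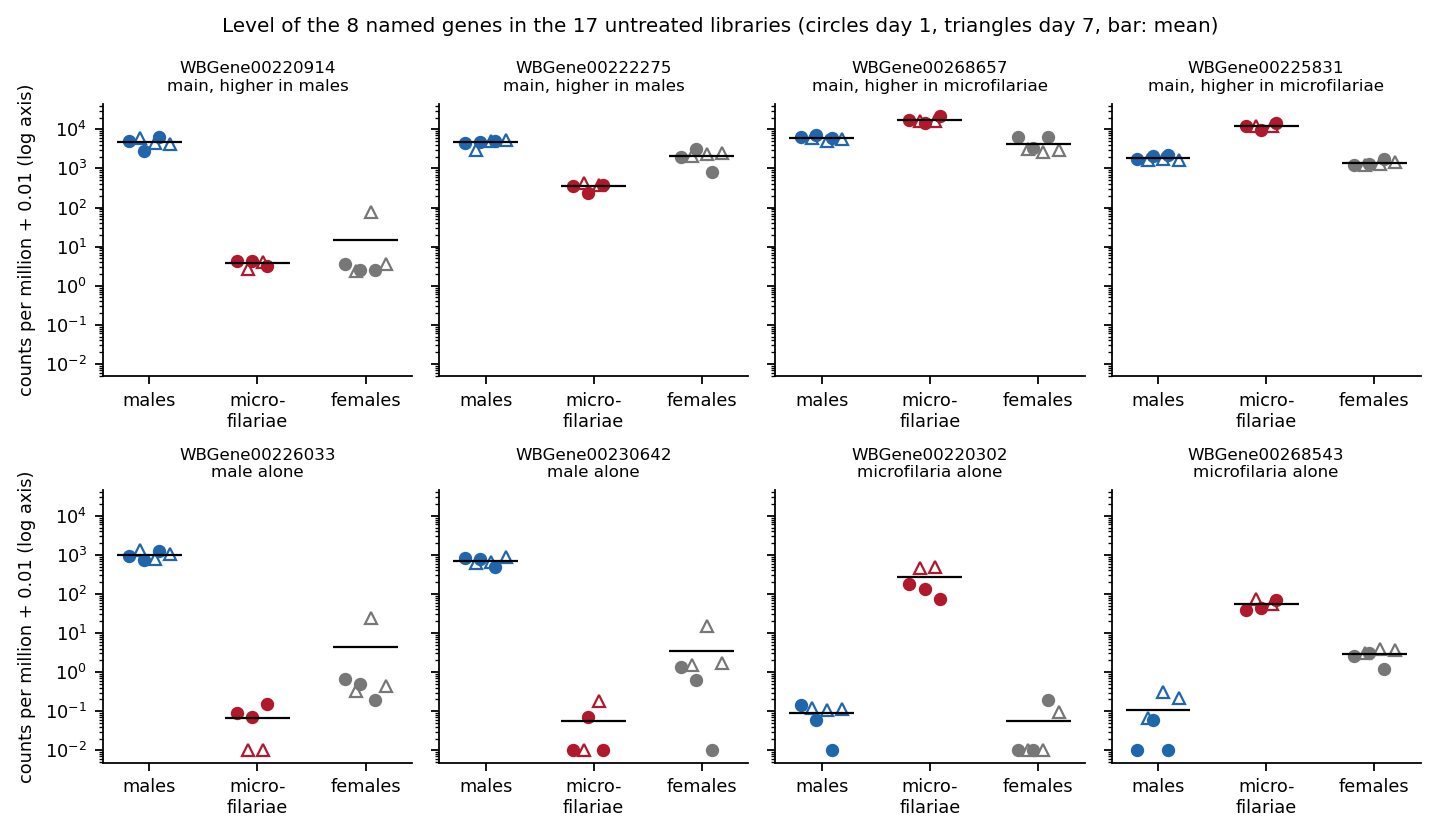
CPM plus 0.01, on a log axis, of the 8 named genes in the 6 male, 5 microfilaria and 6 female untreated libraries, with circles for day 1, triangles for day 7 and a bar at the mean. The rule that named the genes required males and microfilariae not to overlap, and female day 7 replicate 2 lies above the other females for WBGene00220914 (75.9 CPM), WBGene00226033 (24.0 CPM) and WBGene00230642 (15.3 CPM).

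Genes read in one stage and close to absent in the other were more numerous in males. With at least 10 counts in every library of one stage and at most 3 counts in every library of the other, 202 genes were found in males alone and 49 in microfilariae alone. The male genes had a median level of 17.9 CPM and took 0.76% to 1.12% of male counts. The microfilaria genes had a median level of 2.12 CPM and took 0.0441% to 0.0828% of microfilaria counts. The numbers depend on the limit: at 0.1 CPM in every library of the other stage they were 93 and 13, and at 0 counts 19 and 3. Leaving out microfilaria day 1 replicate 2, the larval library with the most genes read at equal depth, raised the male number to 300.

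Most of these genes fell between the limits in untreated females. Of the 202 male genes, 31 had at most 3 counts in every female library, 28 had at least 10 counts in every female library and 143 fell between. Of the 49 microfilaria genes the numbers were 5, 13 and 31. A single female library can take a gene out of the class with at most 3 counts. Female day 7 replicate 2 read WBGene00226033 and WBGene00230642, both among the 202, above all other untreated females. How many genes left that class through this library was not counted. In drug-treated worms 196 of the 202 male genes had at least 10 counts in all 18 male libraries, and 71 had at most 3 counts in all 15 microfilaria libraries. For the 49 microfilaria genes these numbers were 25 of 49 in all 15 microfilaria libraries and 17 of 49 in all 18 male libraries.

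WBGene00226033, the male gene with the highest level in that set, read 932, 727 and 1223 CPM at day 1 and 1306, 761 and 1057 CPM at day 7. In microfilariae it had 2, 1, 2, 0 and 0 counts. The ratio of the pooled rates was 15350, with a 95% counting interval of 6579 to 47290 that covers counting error in the larvae only. WBGene00230642 read 822, 769 and 488 CPM in males at day 1 and 616, 673 and 867 CPM at day 7, against 0, 1, 0, 0 and 2 counts in microfilariae. Its ratio was 19040 (95% counting interval 6516 to 92340). Both genes were read deeply in every male library and by single reads in larvae. The rule for the set requires low counts in the other stage. These ratios, and those of the larval genes given next, are thus a description of chosen genes.

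WBGene00220302, the microfilaria gene with the highest level in that set, read 176, 134 and 73.7 CPM at day 1 and 448 and 496 CPM at day 7. The 6 male libraries had 3, 1, 0, 2, 1 and 1 counts, a ratio of 2652 (95% counting interval 1346 to 6143). Both day 7 larval libraries lay above all 3 of day 1. Females, which carry larvae, had 0, 0, 2, 0, 0 and 1 counts of this gene. WBGene00268543 read 38.9, 44.5 and 69.5 CPM in microfilariae at day 1 and 75.8 and 54.0 CPM at day 7, against 0, 1, 0, 1, 3 and 2 counts in males (ratio 679, 95% counting interval 329 to 1688). Females read it at 1.19 to 3.804 CPM, above every male library and below every larval one, so the 2 larval genes differed in females.

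Microfilaria libraries were more concentrated in few genes than male libraries. The 10 most abundant genes of each library took 8.41% ± 0.68 of counts in microfilariae (SD, n = 5; range 7.47% to 9.16%) and 4.71% ± 0.19 in males (SD, n = 6; range 4.55% to 4.999%). The 100 most abundant genes took 21.1% ± 1.23 and 16.3% ± 1.07, and 1000 genes took 54.0% ± 1.56 and 48.0% ± 1.94. It took 832 ± 63.9 genes to reach 50% of counts in microfilariae, between 767 and 905 in a library, and 1098 ± 94.1 genes in males, between 970 and 1223. The stages did not overlap in any of these measures. Each had an exact two-sided permutation p of 0.005 with stage labels permuted within day, the smallest the 200 arrangements can give (adjusted p = 0.00571 over 8 library measures).

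The abundant genes were in part the same. By mean CPM, 39 of the top 100 genes were shared by males and microfilariae, 4 of the top 10 and 566 of the top 1000. The top 100 of males took 16.1% of male counts and 14.5% of microfilaria counts. The top 100 of microfilariae took 21.0% of microfilaria counts and 10.2% of male counts. By mean CPM no 100 genes can take more of male counts than the 16.1% of the male list. The fall of the larval list from 21.0% was thus fixed in advance, at least to 16.1%. The male list had room to rise in larvae and kept a similar total share. The contrast in part restates that larval counts are more concentrated. Both totals include the 39 shared genes and do not show that single genes kept their level.

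Males had more genes above moderate levels. At 10 CPM or more, males had 8005 ± 164 genes (SD, n = 6) and microfilariae 7125 ± 65.4 (SD, n = 5), and at 1 CPM 9748 ± 98.7 and 9181 ± 110 (exact permutation p = 0.005 for both, adjusted p = 0.00571). Thinned to the 7311412 counts of the shallowest library, the expected number of genes with at least 10 counts was 9601 ± 91.2 in males and 8972 ± 99.1 in microfilariae (exact permutation p = 0.005, adjusted p = 0.00571). With at least 1 count the difference was small, 10737 ± 48.7 against 10616 ± 109, and did not pass (exact permutation p = 0.05, adjusted p = 0.05). Microfilaria day 1 replicate 2 had 10784 genes in that measure against 10482 to 10630 in the other larval libraries, and without it the exact permutation p was 0.01.

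**Figure D3:**
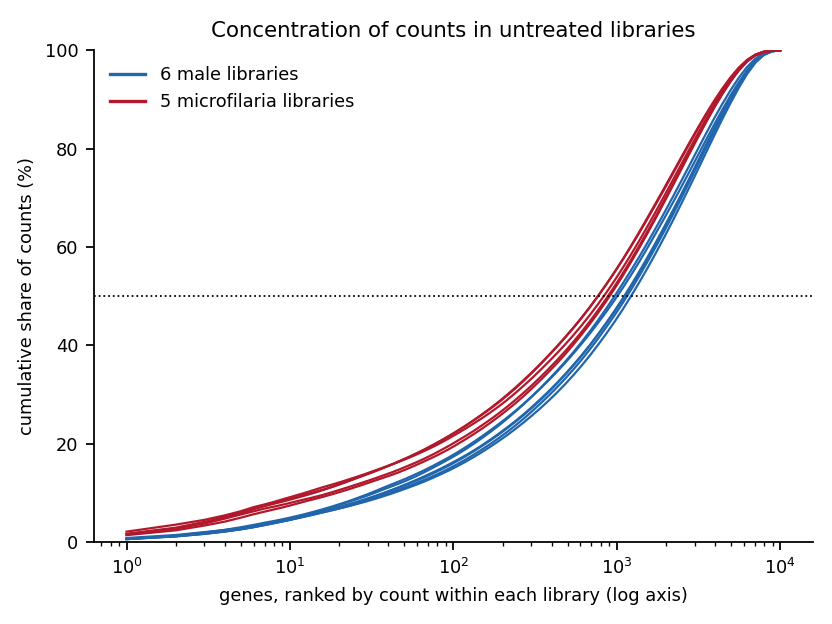
Cumulative share of counts, in percent, against the rank of genes by count within each library on a log axis, for 6 male libraries (blue) and 5 microfilaria libraries (red). The dotted line marks 50% of counts, which larval libraries reach with 767 to 905 genes and male libraries with 970 to 1223.

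The stage difference was of like size on both days. At day 1 alone, with 3 against 3 libraries, 7836 of 10480 genes (74.8%) were called by edgeR, 4056 (38.7%) higher in males and 3780 (36.1%) higher in microfilariae. At day 7, with 3 against 2, 7514 (71.7%) were called, 3911 (37.3%) and 3603 (34.4%). DESeq2 called 75.3% and 72.2%. The days share no library. Of the 2797 genes called at 4-fold or more at day 1, 2794 had the same direction at day 7, 2759 were called there in that direction and 2613 were again at least 4-fold. These 2613 are 93.4% of the day 1 genes and 91.6% of the 2852 genes at 4-fold or more at day 7. Across the 10480 genes, which are not independent replicates, Pearson's r of the fold changes was 0.978 and the slope of day 7 on day 1 was 1.02.

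By edgeR 0 of 10480 genes (0%) were called for a change of the stage difference between days, with a smallest adjusted p of 0.933. An unadjusted p under 0.05 was found for 394, where chance gives 524. The median SE of this change was 0.275 on the log2 scale, so a gene not called may still have changed. DESeq2 called 2 genes (0.0191%). One of these, WBGene00227861, read 211, 216 and 223 CPM in males at day 1 and 195, 182 and 163 CPM at day 7. In microfilariae it read 252, 320 and 240 CPM at day 1 and 403 and 431 CPM at day 7, so larvae were higher and males lower at day 7. The difference of log2 fold changes was -0.97 (SE 0.20, DESeq2 adjusted p = 0.0168, edgeR adjusted p = 0.933). For the other, WBGene00230599, it was 0.88 (SE 0.19, DESeq2 adjusted p = 0.0249, edgeR adjusted p = 0.933). Both were named after their values were seen.

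**Figure D4:**
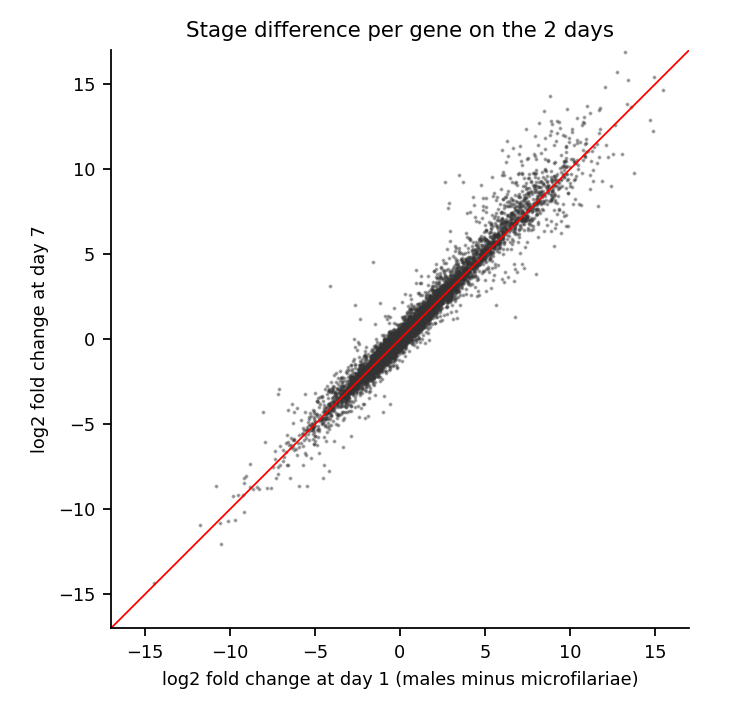
Log2 fold change of each of 10480 genes, males minus microfilariae, at day 7 against day 1, with the line of equality in red. Points lie along the line over the whole range (slope 1.02).

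Within each stage, day 7 and day 1 differed little beside the difference between stages. In males edgeR called 0 of 10480 genes (0%), with 772 at an unadjusted p under 0.05 where chance gives 524, and DESeq2 called 0 (0%). Male day 1 replicate 1 decides this count: without it edgeR called 93 genes, 84 higher at day 7 and 9 lower. Their log2 changes had a median size of 0.93 and a largest size of 1.65. Of the 93, 62 belong to the 1962 male genes and 2 to the 849 microfilaria genes. These classes are 18.7% and 8.10% of the 10480 genes tested in the main comparison. In microfilariae edgeR called 0 (0%), with 156 at an unadjusted p under 0.05 where chance gives 524. There DESeq2 called 2 (0.0191%), named after their values were seen, and edgeR with the replicate number as a block called 1. WBGene00220302, given above, was higher at day 7 by 1.88 on the log2 scale (SE 0.33, DESeq2 adjusted p = 0.000102, edgeR adjusted p = 0.0962). WBGene00228962 read 118, 198 and 205 CPM in microfilariae at day 1 and 64.8 and 79.5 CPM at day 7, a log2 change of -1.25 (SE 0.21, DESeq2 adjusted p = 2.75e-05, edgeR adjusted p = 0.119). The median size of the log2 change between days was 0.17 in males and 0.11 in microfilariae, against 0.92 between stages at day 1.

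The same contrast in drug-treated worms shares no library with the untreated one and called most of the same genes in the same direction. Between males and microfilariae given albendazole, edgeR called 7803 of 10517 genes (74.2%). With diethylcarbamazine it called 8693 of 10572 (82.2%) and with ivermectin 7828 of 10538 (74.3%). The share called higher in males was 39.8%, 42.1% and 37.4% in that order, and the share higher in microfilariae 34.4%, 40.2% and 36.8%. Of the 1962 male genes, 1955, 1958 and 1951 were tested there, and 1939, 1951 and 1914 were called higher in males. Of the 849 microfilaria genes, 833, 841 and 834 were tested, and 821, 823 and 829 were called higher in microfilariae. In all 3 drugs together 1911 of the male genes and 805 of the microfilaria genes were called the same way. Without a size limit this held for 7028 of the 8543 genes called in untreated worms, 82.3%.

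The sizes of the fold changes were close to those in untreated worms. The median log2 fold change of the 1962 male genes was 4.61 in untreated worms (4.58 with genes at 0 set to their bound from 3 counts over the group), and 4.34, 4.48 and 4.07 with albendazole, diethylcarbamazine and ivermectin. That of the 849 microfilaria genes was -3.07, and -2.87, -2.78 and -3.01. Over all genes tested the median was 0.06, 0.02 and -0.01 in the drug groups. The genes were chosen by their size in untreated worms, so the untreated medians serve as a description. WBGene00220914 had log2 fold changes of 10.32 (SE 0.36), 9.83 (SE 0.24) and 10.03 (SE 0.36), and WBGene00225831 of -2.74 (SE 0.22), -2.62 (SE 0.12) and -2.77 (SE 0.23). WBGene00268657, whose groups overlapped, had -1.61 (SE 0.33), -1.70 (SE 0.19) and -1.01 (SE 0.23), all with an edgeR adjusted p of at most 0.00133.

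Genes of females were read in some drug-treated male libraries. In 4 of them, the 328 genes with a 16-fold or larger excess in untreated females over males lay above untreated males by a median of 3.3% to 10.2% of the female level. In the other 14 drug-treated male libraries that excess was -0.05% to 0.68%, and in the 6 untreated males -0.22% to 0.06%. The untreated males helped to choose these genes and set the zero. Their range is therefore a baseline and no test of female RNA in them. The 4 libraries were then left out, an exclusion chosen after the data were seen. Without them edgeR called 7594 of 10511, 8527 of 10525 and 7662 of 10523 genes, fewer than with them in each drug. Of the microfilaria genes, 832 of 834, 841 of 841 and 832 of 834 tested were called higher in microfilariae. The median log2 fold change of the microfilaria genes was then -2.98, -3.02 and -3.05. The male genes did not gain. Of these, 1938, 1947 and 1908 were called higher in males, against 1939, 1951 and 1914 with all libraries. Their median log2 fold change was 4.36, 4.46 and 4.05. Only 1 of the 4-fold genes was called in the opposite direction in a drug group, WBGene00230752 with diethylcarbamazine, named after its value was seen. It read 29.5 and 48.0 CPM in 2 of those male libraries, 0 to 0.39 CPM in the other 4 males, 0.61 to 1.22 CPM in microfilariae and 631 CPM on average in untreated females. Without the 4 libraries 0 genes were called in the opposite direction.

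Untreated females lay nearer to microfilariae than to males for most of the male genes. On the log2 CPM scale, females averaged nearer to males than to microfilariae in 731 of the 1962 male genes, 37.3%. They were within 2-fold of males or above in 492, within 2-fold of microfilariae or below in 897 and between in 573. Of the 849 microfilaria genes, females averaged nearer to microfilariae in 494, 58.2%, within 2-fold of microfilariae or above in 373 and within 2-fold of males or below in 257. The median female level was 2.00 log2 CPM for the male genes, where males had 5.45 and microfilariae 0.12. It was 2.73 for the microfilaria genes, where microfilariae had 3.98 and males 0.34. These are levels in libraries that partly chose the genes, so no test is given.

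In a single fit of the 17 untreated libraries with 10633 genes tested, males and microfilariae differed in 7945 genes (74.7%). Of these, 39.4% were higher in males and 35.3% in microfilariae. Females and microfilariae differed in 6496 (61.1%), 32.7% higher in females and 28.4% in microfilariae. At 4-fold or more (26.9%), 2010 genes (18.9%) were higher in males and 847 (7.97%) in microfilariae. For females against microfilariae (17.4%) these counts were 1406 (13.2%) and 446 (4.19%). Both comparisons share the microfilaria libraries, so the counts stand side by side and were not tested against each other.

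Male day 1 replicate 3 departed from the other males in a set of genes that it read less. In that library 57 genes lay at least 4-fold below the lowest of the other 5 males on the log2 CPM scale and 0 lay that far above. In the remaining 10 libraries, judged against their own stage, between 0 and 12 genes were that far below and between 0 and 14 above. The 57 genes had a median of 0.55 CPM there and 4.85 CPM over the other males, and they were chosen after their values were seen. Of them, 22 (38.6%) belong to the 1962 male genes, which are 18.7% of the genes tested. Another 5 belong to the 849 microfilaria genes, which are 8.10% of the genes tested, and 30 to neither. The 1962 male genes as a whole were lower in that library than in the other 5 males by a median of -0.23 log2 CPM, against -0.04 over all genes tested.

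As a sum, the 57 genes were also low in some other adult libraries of day 1 replicate 3, which had no part in choosing them. A sum is led by the genes with the most reads and does not show each gene. Summed over the 57 genes, untreated males read 500 to 694 CPM and 78.2 CPM in day 1 replicate 3. Of the drug-treated males, day 1 replicate 3 read 303 CPM with albendazole, 611 CPM with diethylcarbamazine and 332 CPM with ivermectin, where all male libraries of other days or replicates ran from 424 to 779 CPM. In females, day 1 replicate 3 read 194 CPM untreated, 411 CPM with albendazole, 141 CPM with diethylcarbamazine and 178 CPM with ivermectin, against 305 to 535 CPM in the other 20 libraries. In microfilariae the 4 libraries of day 1 replicate 3 read 270 to 405 CPM and the other 16 read 267 to 385 CPM. The low values thus lay in some adult libraries of both sexes and not in the larvae. By the design text a replicate was 1 run of all treatments, so libraries of the same day and number may share a run, but no label says which animals or handling they share. The part of a shared run in these values was not tested.

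**Figure D5:**
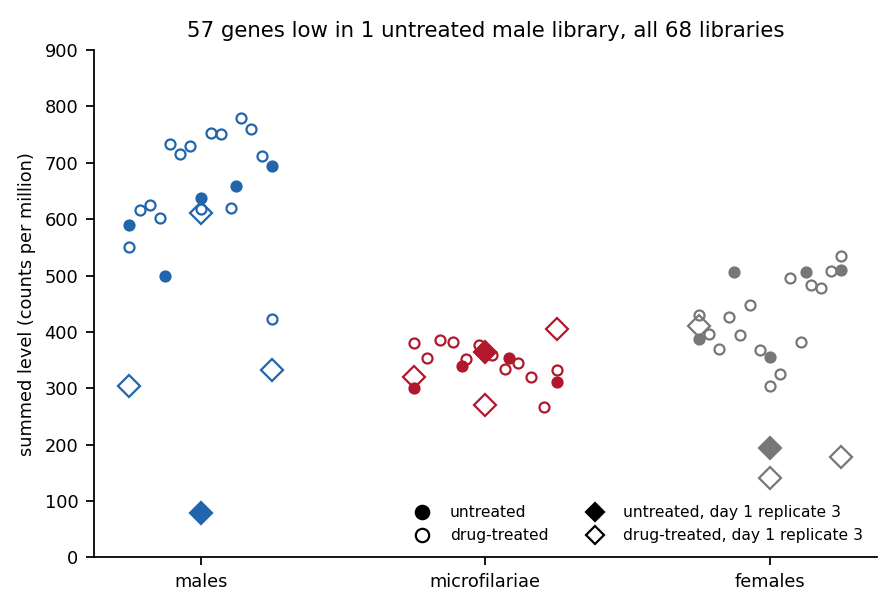
Summed level in CPM of the 57 genes that were low in male day 1 replicate 3, in all 68 libraries by stage, with filled symbols for untreated and open symbols for drug-treated worms and diamonds for day 1 replicate 3. Male day 1 replicate 3 (78.2 CPM, the library that chose the genes) and female day 1 replicate 3 untreated, with diethylcarbamazine and with ivermectin (194, 141 and 178 CPM) lie below the lowest library of other days or replicates of their stage, as do males of day 1 replicate 3 with albendazole (303 CPM) and ivermectin (332 CPM), while microfilariae run from 267 to 405 CPM.

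The spread between libraries was similar in both stages. The common biological coefficient of variation, the spread beyond counting noise, was 0.176 in 6 male libraries and 0.150 in 5 microfilaria libraries, and 0.155 in males without day 1 replicate 3. The median SD of log2 CPM within day was 0.21 in males and 0.20 in microfilariae. Against this, 2811 genes differed by at least 2 on the log2 scale.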

How the data were processed

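The authors deposited a table of unnormalised counts per gene for all libraries, prepared as strand-specific TruSeq libraries according to the labels' protocols. Per the submitters' processing notes, the tools were TopHat2 2.0.14 and HTSeq 0.6.1p1. Their roles, the genome build, the annotation and the counting options are not given in the sources used here, so reads of near-identical gene copies may be split and neighbouring genes on opposite strands may share reads. Columns were joined to samples by the name in the label, and the prefix "Gene:" was dropped from identifiers.

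Tests ran in edgeR 4.0.16 or, as the alternative, DESeq2 1.42.0 (R 4.3.3). Figures used matplotlib 3.10.9. Genes were kept by filterByExpr (minimum count 10, minimum total 15), libraries were scaled by TMM, and stage was tested with day as a term (8 residual degrees of freedom) over all genes. Day comparisons used means of the 4 groups. Tests were two-sided and p-values adjusted by Benjamini-Hochberg. CPM of single genes is scaled to the library's total count alone, and log2 CPM uses a prior count of 2. Floors of 3 counts and the intervals of pooled ratios cover counting error only, while intervals of fold changes come from the edgeR fit and include the spread between libraries. The fit was tested on simulated data. Replicates differed beyond sampling noise in every pair (chi-square per degree of freedom 18.5 to 70.3). Named genes were taken by the largest gap in mean CPM, or the highest level for genes read in one stage alone, among called genes without overlap, 2 per direction. Members, lists and tests were chosen with earlier results of these data known. Planned gene lists could not be tested, since identifiers matched no name. The design text describes each replicate as a run of all treatments, which would pair libraries by number. Deviations of same-numbered males and microfilariae from their group means correlated at -0.108 to -0.01, and the replicate block was kept as an alternative. Alternatives are another scaling, filter, test, fit, the replicate block and each library left out.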

Additional observations from a re-analysis of the deposited data

Results flagged for a closer look

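Of 52 sets of 5 or 6 libraries of one stage examined for a library far from the rest, 7 held one, where chance gives 2.6 (about 1 in 20). The sets are measures of the same libraries and are not independent, so 2.6 is only a rough guide.

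Male day 1 replicate 3 had 7694 genes at 10 CPM or more, against 7998 to 8175 in the other untreated males, and lay at -50.1 on the second principal component, against -4 to 18.5. It is also the male library with the fewest counts, 7311412. Microfilaria day 1 replicate 2 gave 8.134% of its counts to the 849 genes at least 4-fold higher in microfilariae, against 9.52% to 9.854% in the other larval libraries. Male day 7 replicate 1 read WBGene00222275 at 3041 CPM, against 4566 to 5307 CPM in the other males.

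Female day 7 replicate 2 read 3 genes of males above all other untreated females. WBGene00220914 was at 75.92 CPM there against 2.324 to 3.677 CPM, WBGene00226033 at 24.04 CPM against 0.184 to 0.654 CPM, and WBGene00230642 at 15.3 CPM against 0 to 1.71 CPM. These levels are 1.57%, 2.4% and 2.17% of the untreated male means, so the 3 genes stood at a like share of the male level in that library. The cause was not tested.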

How the results depend on the processing

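For 32 results 592 values were recomputed under alternatives. Of these, 576 kept their direction and their side of the threshold or, for counts, lay within 1.5 times the reported count. A count has no direction, so it could not be labelled reversed. The named genes were chosen for a gap without overlap, so their direction could hardly turn. That 0 values were reversed is thus weak support. The called genes numbered 8375 to 8590 with a library left out and 7449 to 8905 under the other settings. Upper-quartile scaling moved the median log2 fold change from 0.015 to -0.065 and the share of called genes higher in males from 51% to 48%, so the near-even split of all called genes has no fixed side. With the replicate block 8274 genes were called, 4238 higher in males and 4036 higher in microfilariae. That block is the number within a day. A block across both days, added after the data were seen, gave 7736 genes at day 1, 7299 at day 7, 0 for the difference between days, 0 for day 7 against day 1 in males and 1 in microfilariae, and neither block moved another count by over 1.5 times. For the difference between days, DESeq2 called 2 genes where edgeR called 0. In microfilariae, day 7 against day 1 gave 2 genes with DESeq2, 1 with total counts as the scaling and 0 to 2 with a library left out, and in males 0 to 93 with a library left out. From day 1 libraries alone 1403 genes were bounded near 0. The difference in genes read at equal depth was 87.1 to 162.6 with a library left out, 631.8 at 10 counts (exact permutation p = 0.005) and 570.7 at 1 CPM (exact permutation p = 0.005). Genes read in one stage alone numbered 19 in males and 3 in microfilariae at 0 counts, and 93 and 13 at 0.1 CPM. Where a left-out library leaves 1 larval library at day 7, that library is assumed to vary like the others. Genes read in one stage alone rest on a limit of few counts, so depth bears on them.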
